A study of Homo sapiens with 38 samples.

Results

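The 64 genes described here are annotated as misc_RNA in the deposited count table and hold 100 or more counts over all 38 libraries, with the Y RNA genes RNY1, RNY3 and RNY4 left out. They are 64 of 2419 misc_RNA features, of which 1059 had any count, in a table of 90127 features. Of the members, 55 are copies of Y RNA genes, 5 belong to the 7SK family, 1 is the vault RNA pseudogene VTRNA3-1P, 1 is the 7SL gene RN7SL1 and 2 have no name or coordinates in the reference annotation. No 7SL pseudogene copy is among them, since RN7SL1 is the gene itself. The summed count chose the members, so the sums are a description. ENSG00000200090 was the member just inside the limit with 101 counts, and the features just outside it had 98, 96 and 94.

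The libraries are small RNA sequencing of HL60 and KG1a, human acute myeloid leukaemia cell lines labelled as wild type, and of the large (lEV) and small (sEV) extracellular vesicles that they release. Each source was sequenced after rPAL, which oxidises the sialic acid of glycans with periodate and ligates it to biotin to pull down sialylated glycoRNA, and as total RNA. This makes 12 groups: HL60 sEV, HL60 lEV, HL60 cell, KG1a sEV, KG1a lEV and KG1a cell, each as rPAL and as total RNA, with n = 4 libraries in both KG1a cell groups and n = 3 in each other group. Cells were grown in RPMI-1640 with 10% fetal bovine serum, glutamine and penicillin-streptomycin, while vesicles came from cells kept 2 days without serum, so medium is confounded with source in vesicles against cells. Whether replicates came from separate cultures is not in the labels, and p-values therefore measure only the spread between these samples. In bulk RNA, fewer vesicles or cells with a transcript and less of it in each cannot be told apart.

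Y RNAs are short noncoding RNAs transcribed by RNA polymerase III. They fold into a stem and loop, bind the ring-shaped protein Ro60 (TROVE2) and the La protein (SSB), and have been tied to RNA quality control and DNA replication. Intact Y RNAs and their fragments are well known constituents of extracellular vesicles, and Y RNA has also been described among glycoRNAs. The human genome carries many retrotransposed copies of them, most of which are held to be pseudogenes. 7SL RNA is the scaffold of the signal recognition particle, 7SK RNA holds the transcription elongation factor P-TEFb inactive in the nucleus, and vault RNAs belong to large cytoplasmic ribonucleoprotein particles.

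The sequences show how closely the most counted copies follow their genes. They come from GENCODE release 29 on GRCh38, are written 5′ to 3′ on the strand of the copy, and have in capitals the longest run identical to the gene the copy is closest to. For RNY4P6, RNY4P20 and RNY4P17 that gene is RNY4, and for ENSG00000212448 it is RNY1, which is printed further down.
RNY4P6: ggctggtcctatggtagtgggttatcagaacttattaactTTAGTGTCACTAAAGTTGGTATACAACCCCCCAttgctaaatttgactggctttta
RNY4P20: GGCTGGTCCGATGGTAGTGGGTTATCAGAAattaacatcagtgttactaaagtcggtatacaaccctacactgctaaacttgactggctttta
RNY4P17: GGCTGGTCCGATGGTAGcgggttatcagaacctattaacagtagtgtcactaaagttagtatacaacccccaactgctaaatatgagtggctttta
RNY4: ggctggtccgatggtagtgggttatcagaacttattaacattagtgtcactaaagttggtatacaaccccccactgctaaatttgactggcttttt
ENSG00000212448: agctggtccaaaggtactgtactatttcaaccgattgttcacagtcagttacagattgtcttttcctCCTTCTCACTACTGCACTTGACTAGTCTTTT

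RNY4P6 was 95.8% identical to RNY4 with a run of 33 bases, RNY4P20 89.6% with a run of 30, and RNY4P17 91.7% with a run of 17. ENSG00000212448 was only 77.0% identical to RNY1, and its 31-base run lies at the 3′ end. Reads inside such runs can come from the gene or from a copy. How reads with several hits were counted and whether strand was used are not given in the sources used here, so the level of any single copy is uncertain.

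A second set of sequences is shown because these 7 copies, unlike the other Y RNA-like copies, had more counts in rPAL than in total RNA libraries. In the copies, capitals mark a stretch of 13 bases that all 7 hold. In RNY1 they mark the same positions, 55 to 67 counted from 1 at its 5′ end. The copies carry the substitution G58C.
ENSG00000201596: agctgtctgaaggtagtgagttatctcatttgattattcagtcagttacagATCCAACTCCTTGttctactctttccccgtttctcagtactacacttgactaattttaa
RNY1P11: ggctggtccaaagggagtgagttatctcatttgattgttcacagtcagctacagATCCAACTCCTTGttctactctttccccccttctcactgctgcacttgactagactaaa
ENSG00000201026: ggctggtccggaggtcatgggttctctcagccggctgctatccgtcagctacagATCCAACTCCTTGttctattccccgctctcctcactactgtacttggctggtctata
ENSG00000222394: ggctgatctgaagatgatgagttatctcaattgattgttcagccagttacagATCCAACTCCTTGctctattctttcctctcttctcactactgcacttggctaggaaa
RNY1P10: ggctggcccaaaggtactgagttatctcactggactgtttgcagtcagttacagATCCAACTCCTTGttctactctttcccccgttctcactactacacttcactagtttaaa
ENSG00000207021: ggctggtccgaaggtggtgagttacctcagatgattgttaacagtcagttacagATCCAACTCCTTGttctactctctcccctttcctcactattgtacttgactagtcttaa
ENSG00000201724: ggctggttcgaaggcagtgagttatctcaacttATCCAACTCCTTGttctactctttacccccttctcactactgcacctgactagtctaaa
RNY1: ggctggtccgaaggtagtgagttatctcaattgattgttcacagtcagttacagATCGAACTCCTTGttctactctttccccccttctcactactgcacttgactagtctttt

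The members together held 39970 counts, 0.0116% of all counts and 44.1% of misc_RNA counts. RNY1, RNY3 and RNY4 held a further 45.4% of misc_RNA counts, and the 992 features with a count under the limit the remaining 10.5%. Y RNA-like copies made up 85.8% of the members' counts, the 7SK family 5.87%, VTRNA3-1P 5.36%, RN7SL1 2.37% and the unnamed pair 0.578%. The median member had 221.5 counts and 29 members had fewer than 200, so most of the set is thinly counted. The 6 most counted members held 58.2% of the counts and the 12 most counted 70.7%. Of the 55 Y RNA-like copies, 27 were closest in sequence to RNY1, 16 to RNY3 and 12 to RNY4; RNY5 was not compared.

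Most copies lie apart from exons. Of the 62 members with coordinates on GRCh38, 25 were between genes, 21 in an intron of a gene on the opposite strand, 13 in an intron on the same strand and 3 over an exon on the same strand. RNY4P6, with 6774 counts the most counted member, lies at chr11:117015897-117015992 on the plus strand, opposite to an intron of SIK3. RNY4P20 (5206 counts) lies at chr6:151298841-151298933 on the minus strand, opposite to an intron of AKAP12. ENSG00000212448 (4001 counts) lies at chr12:95617689-95617786 on the plus strand, in an intron of the pseudogene PGAM1P5 on the same strand. Their lengths of 96, 93 and 98 bases are alike, so this order also holds per base.

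RNY4P7 (2580 counts) lies at chr2:127798903-127798998 on the minus strand in an intron of WDR33, and RNY4P17 (2542 counts) at chr4:169005249-169005344 on the plus strand opposite to an intron of CBR4. RNY4P27 (999 counts) lies at chr13:95336106-95336201 and RNY4P9 (663 counts) at chr13:49908634-49908730, both on the minus strand and between genes. ENSG00000207142 (800 counts) lies at chr12:42454720-42454821 on the plus strand in an intron of PPHLN1. Outside the Y RNA-like copies, VTRNA3-1P (2142 counts) lies between genes at chrX:53462209-53462310, and RN7SKP232 (1055 counts) at chr5:151704289-151704578 opposite to an intron of CLMAT3. RN7SL1 (949 counts) lies at chr14:49586580-49586878 over an exon of AL139099.4, and RN7SKP280 (539 counts) between genes at chr7:155181881-155182184.

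Depth per library was 5498168 to 14892937 counts in total RNA and 2380745 to 15532758 in rPAL, so 3 counts amount to 0.201 to 0.546 CPM (counts scaled to a common library total) in a total library and to 0.193 to 1.26 in an rPAL library. Sampling of few counts therefore limits the rPAL values most. The line labels matched defining transcripts in cell total RNA. CD34 was at 0.0704 ± 0.0699 CPM in HL60 and 2.95 ± 1.47 in KG1a, and the myeloperoxidase transcript MPO at 2.49 ± 0.943 CPM in HL60 and 0.0181 ± 0.0362 in KG1a (SD, n = 3 and n = 4). CPM values carry the SD between libraries. Log2 fold changes were fitted with TMM scaling and carry the SE of that fit. A call is an adjusted p under 0.05 in edgeR's quasi-likelihood test with Benjamini-Hochberg adjustment over all features that passed the low-count filter. A member passed that filter often through the group where it was high, so counts among tested members are a description.

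Y RNA-like copies were most abundant in the total RNA of vesicles, above all in HL60. Their summed level in total RNA was 251 ± 92.9 CPM in HL60 sEV, 490 ± 283 in HL60 lEV and 34.0 ± 5.85 in HL60 cells. In KG1a it was 54.4 ± 31.4 CPM in sEV, 128 ± 53.9 in lEV and 7.84 ± 2.46 in cells. Every vesicle total library of a line was above every cell total library of that line.

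**Figure D1:**
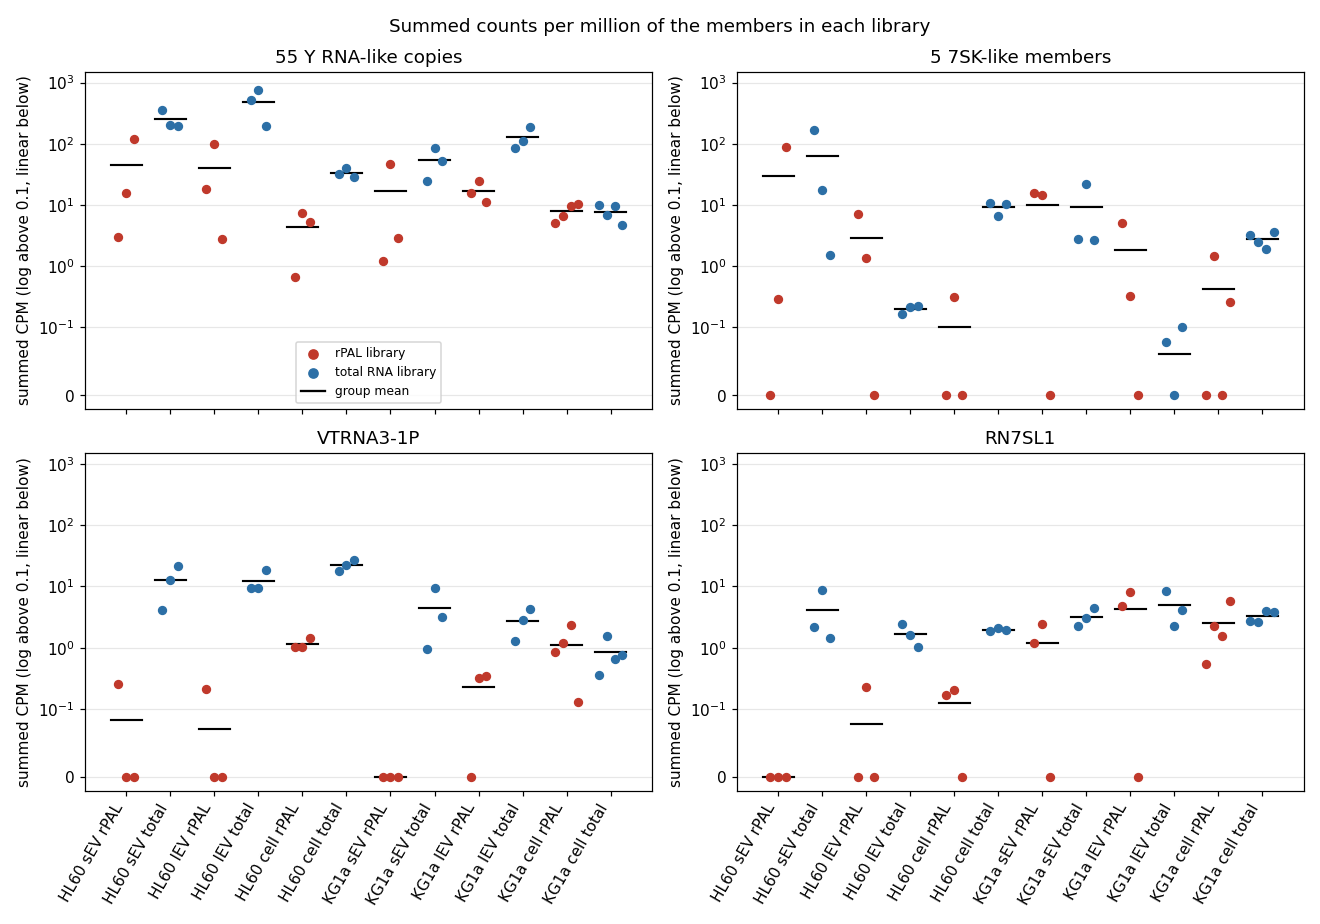
Summed CPM of the Y RNA-like copies, the 7SK-like members, VTRNA3-1P and RN7SL1, a panel each, in each library (points; line, group mean) in the 12 groups, on an axis that is logarithmic above 0.1 CPM and linear below, with rPAL left of total RNA. Y RNA-like copies reached 756 CPM in an HL60 lEV total library and stayed at 9.86 CPM or less in KG1a cell total libraries.

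In lEV against cells nearly all tested copies were called higher. Of the 64 members 44 were tested in HL60, of which 40 were called higher and 2 lower, where 27.3% of all features tested were called, 12.1% higher and 15.2% lower. In KG1a 19 were tested, with 15 called higher and 2 lower, where 52.3% of all features were called, 23.8% higher and 28.5% lower. The tested members had a median log2 fold change of 4.31 in HL60 and 3.72 in KG1a, against medians of 0.16 and -0.01 over all features. All 39 tested Y RNA-like copies were called higher in HL60, and 14 of 15 in KG1a. By mean CPM all 12 copies closest to RNY4 and all 20 copies closest to RNY1 without the 13-base stretch were higher in lEV than in cells of both lines. All 16 copies closest to RNY3 were higher in HL60, but in KG1a 10 were higher and 2 lower. Of the 7 copies with the stretch, 6 were higher and 0 lower in HL60, and 3 higher and 4 lower in KG1a.

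RNY4P6 had 159, 115 and 22.5 CPM in HL60 lEV total RNA, against 3.21, 3.29 and 2.66 CPM in HL60 cells. In KG1a it had 7.83, 11.0 and 21.4 CPM in lEV, against 0.290, 0.411, 0.377 and 0.336 in cells. Every lEV library was above every cell library in both lines, though the HL60 lEV libraries spread widely. The log2 fold change was 6.08 ± 0.91 (SE, edgeR adjusted p = 0.00084) in HL60 and 5.08 ± 0.43 (edgeR adjusted p = 9.21e-07) in KG1a.

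RNY4P17 had 54.8, 41.2 and 11.5 CPM in HL60 lEV, against 0.428, 1.48 and 1.12 CPM in HL60 cells. The groups did not overlap, and the log2 fold change of 6.14 ± 0.93 (SE, edgeR adjusted p = 0.000853) was the largest of the named members in that comparison. ENSG00000207142, a copy closest to RNY3, had 3.19, 41.4 and 6.66 CPM in HL60 lEV, against 0.571, 1.14 and 0.979 CPM in HL60 cells. The groups did not overlap, but lEV replicate 2 stood far above the other lEV libraries. Its log2 fold change was 5.27 ± 1.04 (SE, edgeR adjusted p = 0.00305), and 3.0 without that library.

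In KG1a the largest folds were again those of RNY4 copies. RNY4P37 had 5.62, 4.17 and 10.7 CPM in lEV, against 0, 0.329, 0.188 and 0.0840 CPM in cells, with a log2 fold change of 5.33 ± 0.54 (SE, edgeR adjusted p = 3.06e-06). RNY4P19, in an intron of SLC16A14 on the same strand, had 5.30, 5.47 and 10.8 CPM in lEV, against 0.435, 0.164, 0.283 and 0.0840 CPM in cells. Its log2 fold change was 4.67 ± 0.47 (SE, edgeR adjusted p = 2.55e-06). The groups of neither member overlapped.

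The Y RNA genes moved the same way. RNY4 rose by 4.57 ± 0.72 on the log2 scale in HL60 lEV against cells (edgeR adjusted p = 0.00102) and by 4.44 ± 0.43 in KG1a (edgeR adjusted p = 1.94e-06). RNY1 rose by 3.13 ± 0.70 in HL60 and 2.49 ± 0.36 in KG1a, and RNY3 by 3.14 ± 0.58 and 2.08 ± 0.33. Since reads may be shared between genes and copies, the rises of gene and copy are not independent.

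**Figure D2:**
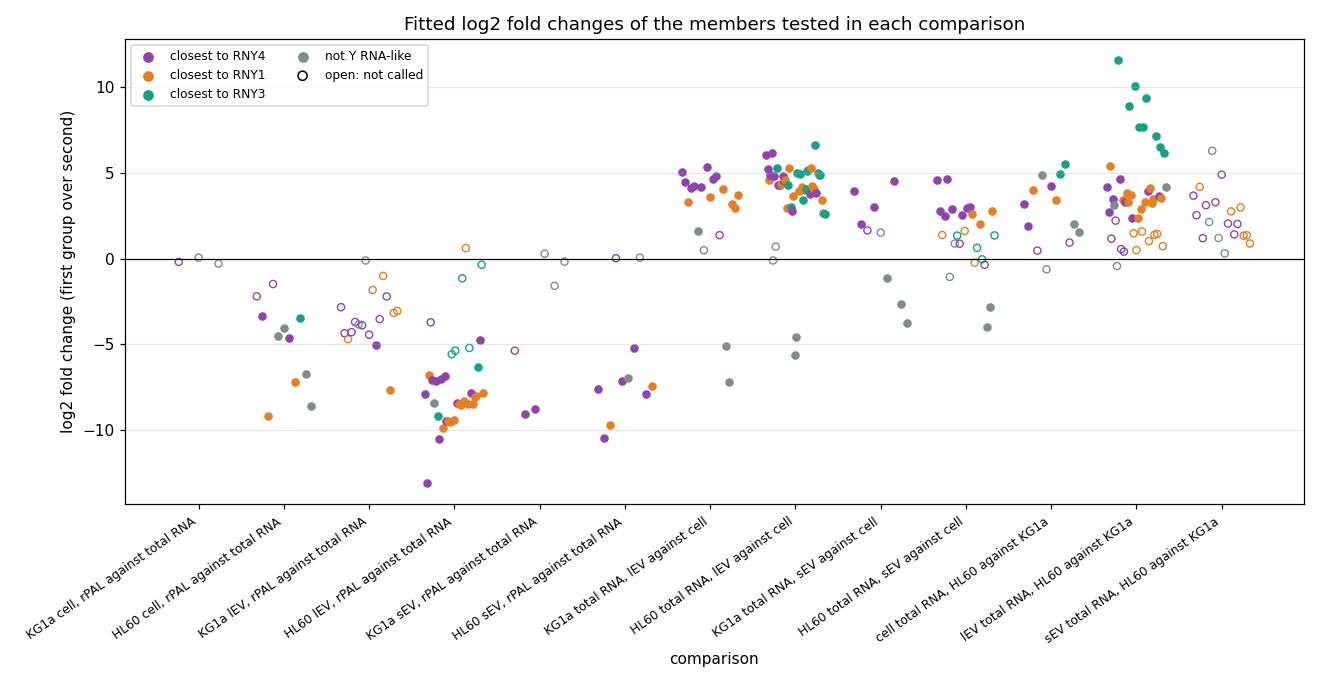
Fitted log2 fold change (first group over second) of each tested member in the 13 comparisons, coloured by the closest Y RNA gene; filled points were called and open points were not. Called rPAL folds lie below 0, called lEV against cell folds of Y RNA-like copies between 2.60 and 6.61. Folds against a group without counts depend on the prior count of the fit.

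In sEV against cells fewer members were called. In HL60 11 were called higher and 2 lower of 24 tested, where 26.7% of all features were called, 13.9% higher and 12.8% lower. In KG1a 4 were called higher and 3 lower of 9 tested, where 45.1% of all features were called, 23.0% higher and 22.1% lower. Without TMM scaling the KG1a split was 6 higher and 1 lower, and the median of all features moved by 1.14 on the log2 scale. The KG1a count was 11 without sEV replicate 1 and 4, 4 and 2 without cell replicates 1, 2 and 4, and the HL60 count of 13 was 4, 5 and 4 without cell replicates 1, 2 and 3. The members tested also change when a library is left out, so these counts are a description.

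RNY4P6 was again high in vesicles. It had 149, 45.8 and 77.4 CPM in HL60 sEV, against 3.21, 3.29 and 2.66 CPM in cells, and 4.72, 17.4 and 11.9 CPM in KG1a sEV, against 0.290 to 0.411 CPM in cells. No sEV library overlapped with cells. Its log2 fold change was 4.6 ± 0.55 in HL60 (SE, edgeR adjusted p = 0.00121) and 3.97 ± 0.56 in KG1a (edgeR adjusted p = 0.000376). RNY4P17 rose by 4.66 ± 0.74 in HL60 sEV (edgeR adjusted p = 0.00354; 55.5, 17.5 and 23.0 CPM in sEV) and by 3.03 ± 0.84 in KG1a sEV (edgeR adjusted p = 0.0121; 1.29, 12 and 3.01 CPM in sEV).

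Single libraries decided some of these calls. Without KG1a sEV replicate 2, RNY4P17 had a log2 fold change of 1.19 (edgeR adjusted p = 0.198) in KG1a. RNY4P20, with 3.75, 17.2 and 6.71 CPM in KG1a sEV against 1.23, 0.822, 2.26 and 0.504 CPM in cells, rose by 2.02 ± 0.64 (edgeR adjusted p = 0.0225), and by 0.76 without the same library (edgeR adjusted p = 0.263). It also lost the call without cell replicate 1, 2 or 4 (edgeR adjusted p of 0.0542, 0.0835 and 0.0748). RNY4P28 rose by 3.03 ± 0.68 in HL60 sEV (edgeR adjusted p = 0.0125), with 11.3, 2.52 and 4.04 CPM in sEV against 0.499, 0.806 and 0.419 CPM in cells, and lost the call without cell replicate 1, 2 or 3 (edgeR adjusted p of 0.132, 0.0736 and 0.125). Of the Y RNA genes, RNY4 rose in sEV by 2.02 in HL60 and 1.95 in KG1a, while RNY1 and RNY3 were not called.

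HL60 held more of most copies than KG1a, and this was most marked for copies of RNY3. In cell total RNA 10 of 13 tested members were called higher in HL60 and none lower, where 39.9% of all features were called, 18.4% higher and 21.5% lower. In lEV 31 of 43 tested members were called higher and none lower, where 16.1% of all features were called, 7.04% higher and 9.07% lower. In sEV no member of 19 tested was called by edgeR, where 1.38% of all features were called, 0.606% higher and 0.769% lower. Of those 19, 11 had an unadjusted p under 0.05, and DESeq2 called 6, where it called 5.89% of all features. By mean CPM all 16 copies closest to RNY3 were higher in HL60 in cells, in lEV and in sEV. All 12 copies closest to RNY4 were higher in cells and sEV, but in lEV 9 were higher and 3 lower. Of the 20 copies closest to RNY1 without the 13-base stretch, 18 were higher in cells, 17 in lEV and 20 in sEV. Of the 7 copies with the stretch, 0 were higher in cells, 3 in lEV and 2 in sEV.

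Copies closest to RNY3 summed to 72 ± 75.8 CPM in HL60 lEV total RNA and 0.666 ± 0.397 CPM in KG1a lEV. They summed to 6.37 ± 0.63 CPM in HL60 cells and 0.143 ± 0.0773 in KG1a cells, and to 14.1 ± 6.63 CPM in HL60 sEV and 0.528 ± 0.524 in KG1a sEV. The HL60 lEV libraries had 21.2, 159 and 35.7 CPM, with replicate 2 the highest by far, and still all lay above the KG1a lEV libraries at 0.237, 0.742 and 1.02. RNY3 differed in the same direction, by 2.93 ± 0.32 in cells (edgeR adjusted p = 6.38e-07) and 3.99 ± 0.62 in lEV (edgeR adjusted p = 0.00133). RNY1 was not called between the lines, with a log2 fold change of 0.10 in cells and 0.69 in lEV.

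Several RNY3 copies had no count in KG1a lEV total RNA. ENSG00000207142 had 38, 566 and 90 counts in HL60 lEV and none in KG1a lEV, at least 196-fold higher against a floor of 3 counts over the group (edgeR adjusted p = 0.00221). ENSG00000202469, in an intron of WWC3 on the same strand, had 12, 200 and 24 counts in HL60 lEV and none in KG1a lEV, at least 66.8-fold higher (edgeR adjusted p = 0.00453). ENSG00000200506, opposite to an intron of CCDC85C, had 12, 288 and 32 counts in HL60 lEV and 0, 1 and 0 in KG1a lEV (edgeR adjusted p = 0.00301). HL60 lEV replicate 2 was the highest library for all of them, and each kept its call without it, but the bounds were then at least 55.7-fold for ENSG00000207142 and 15.7-fold for ENSG00000202469. Without KG1a lEV replicate 1 they were 122-fold and 41.4-fold. RNY3 itself was even across these libraries, at 54.7, 60.6 and 47.3 CPM.

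In cells, the vault RNA pseudogene and an RNY1 copy set the lines apart. VTRNA3-1P had 17.6, 22.5 and 27.2 CPM in HL60 cells, against 0.362, 1.56, 0.660 and 0.756 CPM in KG1a cells. All HL60 libraries were far above all KG1a libraries, with a log2 fold change of 4.87 ± 0.40 (SE, edgeR adjusted p = 1.27e-08). ENSG00000212448 had 5.49, 7.65 and 5.45 CPM in HL60 cells, against 0.652, 0.164, 0.283 and 0.504 CPM in KG1a cells, with a log2 fold change of 4.0 ± 0.41 (SE, edgeR adjusted p = 2.94e-07). The groups did not overlap.

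**Figure D3:**
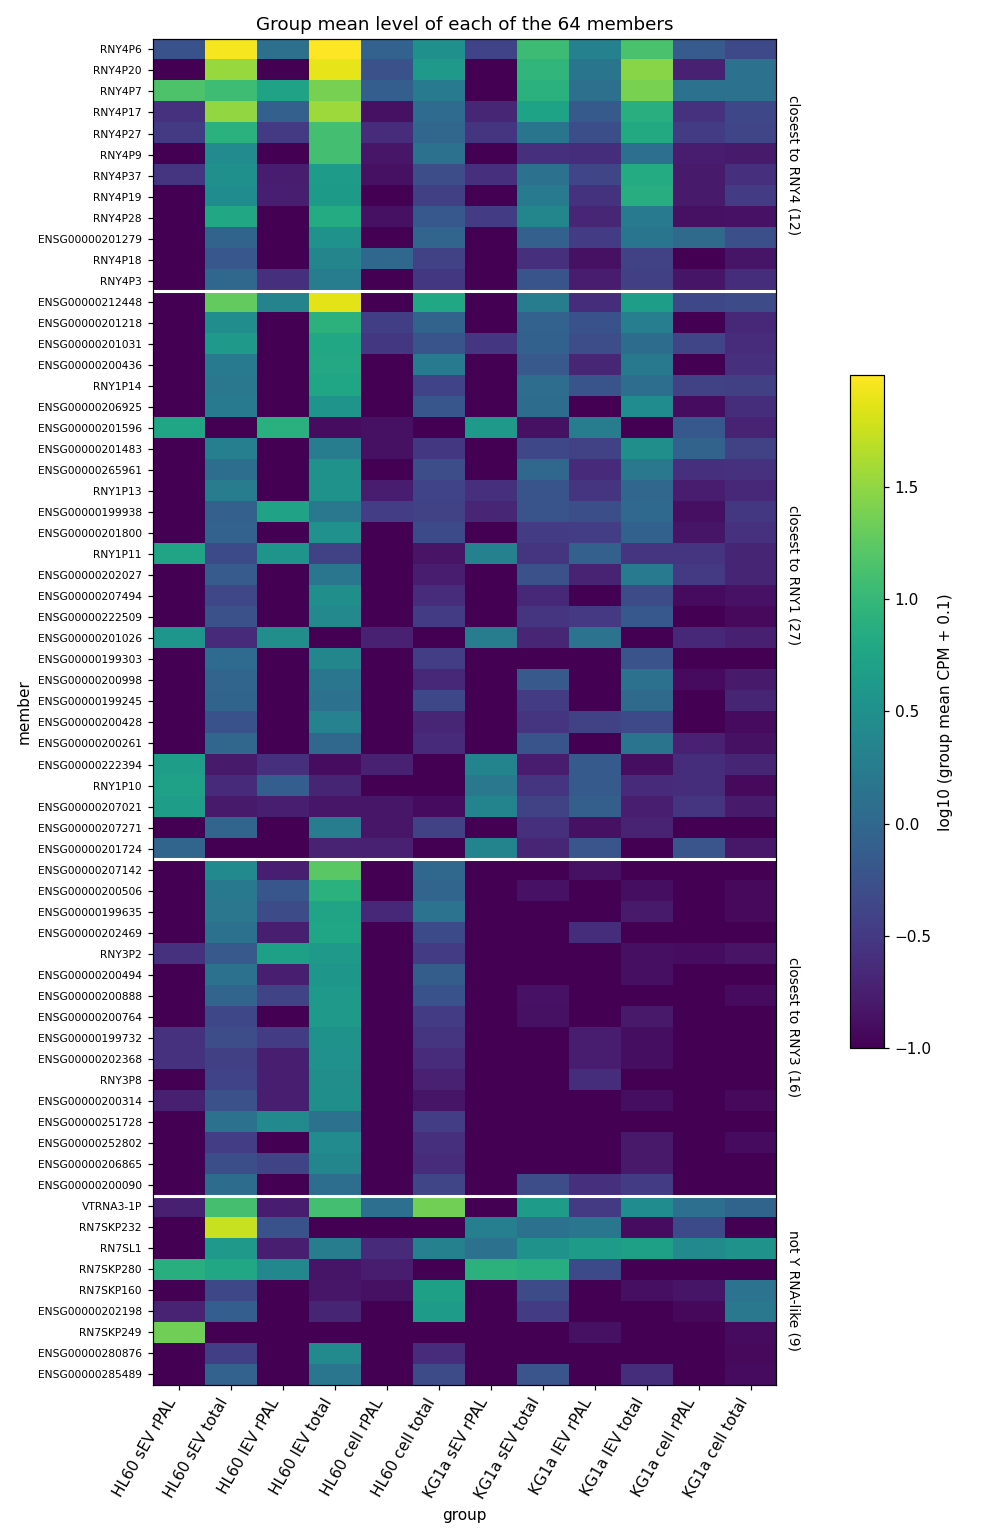
Group mean level of each of the 64 members, as log10 (mean CPM + 0.1), with members as rows grouped by the closest Y RNA gene and the 12 groups as columns, rPAL left of total RNA. The 16 copies closest to RNY3 are dark in the KG1a columns, where their total RNA sums averaged 0.666 CPM or less, and bright in HL60 lEV total RNA.

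Copies made up a different share of the reads for each Y RNA gene. In total RNA, copies closest to RNY4 held 91.8 ± 2.17% of the counts on RNY4 and its copies in HL60 sEV, 86.5 ± 4.33% in HL60 lEV and 81.4 ± 2.57% in HL60 cells. In KG1a they held 77.7 ± 5.49% in sEV, 74.4 ± 1.95% in lEV and 75.0 ± 6.34% in cells. The 12 copies thus held most of the counts at this family in every group, although each is close in length to RNY4.

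Copies closest to RNY1 held less, with 38.8 ± 6.65% in HL60 sEV, 38.8 ± 19.7% in HL60 lEV and 21.0 ± 1.84% in HL60 cells. In KG1a their share was 16.7 ± 6.16% in sEV, 7.93 ± 1.88% in lEV and 6.02 ± 1.92% in cells. For RNY3 the copies held 34.4 ± 9.37%, 47.8 ± 22.6% and 35.7 ± 3.76% in HL60 sEV, lEV and cells, and 12.5 ± 11.1%, 8.17 ± 4.56% and 8.19 ± 4.09% in KG1a sEV, lEV and cells. The lines did not overlap for RNY1 copies in any source, and the HL60 lEV values were the most spread.

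**Figure D4:**
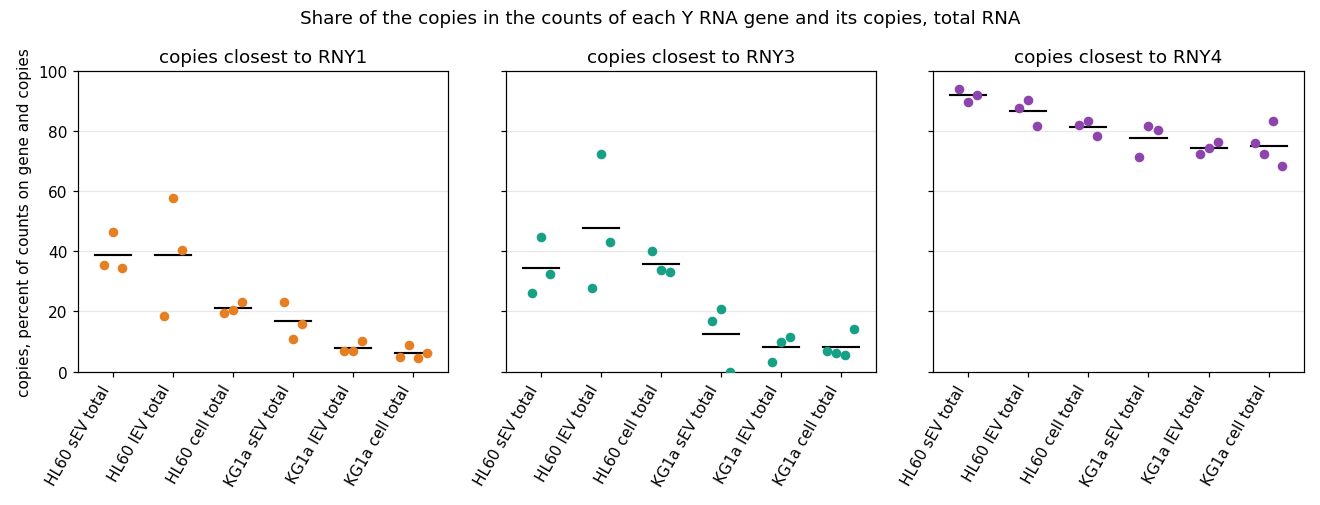
Counts on the copies as a percentage of counts on the gene and its copies, per total RNA library (points) with group means, for RNY4, RNY1 and RNY3, HL60 left of KG1a. Copies of RNY4 lie at 68.4% or more in every library, while RNY1 and RNY3 copies are at 23.1% or less in every KG1a library.

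After rPAL most copies were lower than in total RNA. In HL60 lEV 27 of 34 tested members were called lower in rPAL than in total RNA and none higher, where 31.3% of all features were called, 12.3% higher and 18.9% lower. In HL60 sEV 8 of 10 were called lower, where 18.8% of all features were called, 2.51% higher and 16.3% lower. In HL60 cells 9 of 11 were called lower, where 38.6% were called, 20.6% higher and 18% lower. No member was called higher in either. In KG1a lEV 2 of 17 tested members were called lower, where 10.2% of all features were called, 3.16% higher and 7.07% lower. In KG1a sEV 2 of 6 were called lower, where 6.61% were called, 0.48% higher and 6.13% lower. In KG1a cells edgeR called 0 of 3 tested members, where it called 18.8% of all features, 8.89% higher and 9.86% lower; 0 of the 3 had an unadjusted p under 0.05, and DESeq2 called 0, where it called 24.8% of all features. The median log2 fold change of tested members against that of all features was -7.96 against 0.08 in HL60 lEV, -7.29 against -0.12 in HL60 sEV, -4.54 against 0.04 in HL60 cells, -3.71 against -0.30 in KG1a lEV, -3.49 against -0.42 in KG1a sEV and -0.19 against -0.04 in KG1a cells. In HL60 lEV 17 tested members had no count in 1 group, and their fitted folds depend on the prior count.

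These counts rest on few libraries. Leaving out a library also changes which members pass the low-count filter, so a count can exceed the number tested with all libraries. No share of all features called is given for these fits, so the counts are a description. The HL60 lEV count was 5, 3 and 6 without total replicates 1, 2 and 3, and 42, 49 and 42 without rPAL replicates 1, 2 and 3. The KG1a lEV count was 0 without any one of the total replicates, 4, 18 and 9 without rPAL replicates 1, 2 and 3, and 13 with DESeq2, which called 22.3% of all features. In KG1a cells it was 2, 3, 3 and 2 without rPAL replicates 1 to 4, 1 without total replicate 3 and 0 without each other total replicate. The KG1a sEV count was 0 without total replicate 1 or 2 and without rPAL replicate 1 or 2, and 1 without total replicate 3. The HL60 sEV count was 1, 1 and 3 without total replicates 1, 2 and 3 and 2, 0 and 3 without rPAL replicates 1, 2 and 3, while HL60 cells had 14 without rPAL replicate 2 or 3 and 6 without total replicate 2.

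RNY4P6 had 0.253, 0.296 and 0.840 CPM in HL60 sEV rPAL, against 149, 45.8 and 77.4 CPM in HL60 sEV total RNA. In HL60 lEV it had 0.847, 1.85 and 0.804 CPM in rPAL, against 159, 115 and 22.5 CPM in total RNA. The groups did not overlap, and every rPAL library was far below every total RNA library. Its log2 fold change was -7.60 ± 1.33 in sEV (SE, edgeR adjusted p = 0.00955) and -7.91 ± 1.18 in lEV (edgeR adjusted p = 0.00623); in sEV the call was lost without rPAL replicate 2 (edgeR adjusted p = 0.0585). In KG1a lEV the difference was smaller, with 1.18, 3.02 and 1.74 CPM in rPAL against 7.83, 11.0 and 21.4 in total RNA, and was not called (log2 fold change -2.84, edgeR adjusted p = 0.124).

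RNY4P20 had no count in any vesicle rPAL library other than KG1a lEV replicate 2, which had 38. In HL60 lEV it had 0 counts in rPAL and 1181, 1563 and 247 in total RNA, at least 357-fold lower (edgeR adjusted p = 0.00732). In HL60 sEV it had 0 counts in rPAL and 258, 346 and 145 in total RNA, at least 100.1-fold lower (edgeR adjusted p = 0.0286). In KG1a sEV it had 0 counts in rPAL and 35, 148 and 58 in total RNA, at least 36.0-fold lower (edgeR adjusted p = 0.0124). The sEV calls were lost without rPAL or total replicate 1 or 2, with edgeR adjusted p of 0.0532 to 0.0739 in HL60 and 0.0605 to 0.118 in KG1a. Without rPAL replicate 1 or 3 the HL60 lEV bound was 237-fold and 231-fold, without rPAL replicate 1 or 2 the HL60 sEV bound 59.3-fold and 65.2-fold, and without rPAL or total replicate 2 the KG1a sEV bound 17.4-fold and 20.5-fold. Floors here are 3 counts over the rPAL group and cover counting error only.

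Other RNY4 copies did likewise. RNY4P9 had 0 counts in HL60 lEV rPAL and 101, 286 and 104 in total RNA, at least 58.7-fold lower (edgeR adjusted p = 0.0117). RNY4P28 had 0 counts in HL60 sEV rPAL and 62, 21 and 42 in total RNA, at least 16.7-fold lower (edgeR adjusted p = 0.0286). RNY4P19 had 0.0982, 0.431 and 0 CPM in KG1a lEV rPAL, against 5.30, 5.47 and 10.8 CPM in total RNA, and fell by 5.07 ± 1.47 on the log2 scale (edgeR adjusted p = 0.0391). The RNY4P9 bound was 38.9-fold without rPAL replicate 1, 37.9-fold without rPAL replicate 3 and 37.7-fold without total replicate 2, and the RNY4P28 bound 9.90-fold without rPAL replicate 1, 10.9-fold without rPAL replicate 2 and 10.9-fold without total replicate 1. None of these groups overlapped, yet each call was lost without some single libraries. RNY4P9 lost it without total replicate 1 or 2 (edgeR adjusted p of 0.0502 and 0.0649), RNY4P28 without rPAL replicate 1, 2 or 3 or total replicate 2 (0.0532 to 0.0671), and RNY4P19 without rPAL replicate 1 or total replicate 1, 2 or 3 (0.0674 to 0.188).

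RNY4P7 varied between rPAL libraries; its single libraries were singled out after their values were seen. In KG1a sEV it had 0 counts in rPAL and 49, 93 and 68 in total RNA, at least 31.3-fold lower (edgeR adjusted p = 0.016), a call lost without rPAL replicate 1 or 2 or total replicate 1, 2 or 3 (edgeR adjusted p of 0.0727 to 0.118); the bound was 15.2-fold without rPAL replicate 2. In HL60 sEV, however, rPAL replicate 3 had 101 counts (42.4 CPM) and the other rPAL libraries none, against 16.9, 5.87 and 11.3 CPM in total RNA, and in HL60 lEV rPAL replicate 1 had 75 counts (15.9 CPM) and the others none, against 42.6, 18.3 and 11.1 CPM in total RNA. RNY4 itself had 11 counts in that sEV library and 79 in that lEV library. RNY4P7 was not called in rPAL against total RNA in HL60 sEV (edgeR adjusted p = 0.997) or lEV (edgeR adjusted p = 0.201).

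Copies closest to RNY1 without the 13-base stretch were also lower after rPAL in most sources. By mean CPM all 20 were lower in rPAL than in total RNA in HL60 sEV, HL60 cells and KG1a lEV, and 19 of 20 in HL60 lEV and KG1a sEV. The split was made after the values were seen, since the 7 copies with the stretch were picked for more rPAL counts. The tallies of the 20 partly follow from that choice and are a description. In KG1a lEV and KG1a cells all 7 copies with the stretch were higher. In KG1a cells 13 of the 20 copies without the stretch were lower and 5 higher, and of the RNY4 copies 9 of 12 were lower and 3 higher. All 16 copies closest to RNY3 were lower after rPAL in HL60 sEV and HL60 cells, and in HL60 lEV 14 were lower and 2 higher. In KG1a lEV 9 of them were lower and 5 higher. In KG1a sEV 4 were lower and in KG1a cells 6, with 0 higher in either. ENSG00000212448 had 0 counts in HL60 sEV rPAL and 65, 262 and 139 in total RNA, at least 62.3-fold lower (edgeR adjusted p = 0.0288). In HL60 cells it had 0 counts in rPAL and 77, 114 and 78 in total RNA, at least 45.5-fold lower (edgeR adjusted p = 0.000438). In HL60 lEV it had 0, 6.24 and 0 CPM in rPAL, against 24.9, 167 and 31.8 CPM in total RNA, where it fell by 6.80 ± 2.15 on the log2 scale (edgeR adjusted p = 0.0422). The lEV call was lost without total replicate 1, 2 or 3 (edgeR adjusted p of 0.0783 to 0.187), and the sEV call without rPAL replicate 1 or 2 or total replicate 1, 2 or 3 (0.0532 to 0.0739). The sEV bound was 36.9-fold without rPAL replicate 1 and 40.6-fold without rPAL replicate 2, and the cell bound 25.5-fold without rPAL replicate 2.

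ENSG00000201218 had 0 counts in HL60 lEV rPAL and 86, 169 and 73 in total RNA, at least 39.2-fold lower (edgeR adjusted p = 0.0139), a call lost without total replicate 1, 2 or 3 (edgeR adjusted p of 0.0598 to 0.0732); the bound was 26-fold without rPAL replicate 1 and 25.3-fold without rPAL replicate 3. ENSG00000206925, named after its values were seen because it is 1 of the 2 members called in KG1a lEV, had 0 counts in rPAL and 24, 29 and 37 in total RNA, at least 20.2-fold lower (edgeR adjusted p = 0.0245). That call was lost without total replicate 1, 2 or 3 (edgeR adjusted p of 0.0559 to 0.0808), and the bound was 11-fold without rPAL replicate 1 and 11.8-fold without rPAL replicate 2. RNY1 itself fell by 1.99 on the log2 scale in HL60 cell rPAL (edgeR adjusted p = 0.0124) and was not called in KG1a cells (0.69). RNY4 fell by 6.04 in HL60 cells (edgeR adjusted p = 0.00176), and RNY3 was not called there (0.29). In HL60 sEV RNY1 had 0, 0.296 and 0.420 CPM in rPAL, against 80.8, 61.1 and 63.6 in total RNA. RNY3 had 0.505, 0 and 0 CPM there, against 26.2, 27.0 and 23.8. In HL60 lEV RNY1 had 47.0, 40.7 and 0 CPM in rPAL, against 375, 185 and 100 in total RNA. RNY3 had 0, 37.0 and 0 CPM there, against 54.7, 60.6 and 47.3. In KG1a lEV RNY3 overlapped, at 21.8, 4.95 and 0 CPM in rPAL and 7.68, 6.77 and 7.75 in total RNA.

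Against this stood the 7 copies that hold ATCCAACTCCTTG. They were picked after their values were seen, for having more rPAL than total counts, so their levels are a description with no test. Summed over all libraries, ENSG00000201596 had 291 counts in rPAL and 7 in total RNA, RNY1P11 146 and 37, ENSG00000201026 132 and 11, ENSG00000222394 106 and 11, RNY1P10 99 and 18, ENSG00000207021 96 and 19, and ENSG00000201724 96 and 10. The stretch was in these 7 of the 812 Y RNA genes with a sequence (0.862%) and in no other member; its reverse complement was in 0 Y RNA genes. RNY1's own 13 bases at these positions were in 20 Y RNA genes, of which 1 is a member (ENSG00000201031).

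The counts of the 7 copies came from a few rPAL libraries. Their summed level in HL60 sEV was 0, 15.1 and 75.2 CPM in rPAL, against 0.755 ± 0.769 CPM in total RNA. In HL60 lEV it was 0.212, 44.9 and 0.201 CPM in rPAL, against 0.587 ± 0.365 CPM in total RNA. In KG1a sEV it was 0, 45.2 and 1.65 CPM in rPAL, against 0.988 ± 0.915 CPM in total RNA. In each of these groups 1 rPAL library carried most of the signal, and at least 1 rPAL library lay within or below the range of total RNA.

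In KG1a lEV the sum was 11.2, 0.323 and 6.97 CPM in rPAL, against 0.422 ± 0.0363 CPM in total RNA. In KG1a cells rPAL replicate 4 had 7.08 CPM and the others 0.184 or less, against 0.528 ± 0.750 CPM in total RNA. HL60 cells had the least, with 0, 0.414 and 0.629 CPM in rPAL and 0.0690 ± 0.0699 CPM in total RNA. By mean CPM all 7 copies were higher in rPAL in HL60 sEV, KG1a sEV, KG1a lEV and KG1a cells, 6 in HL60 lEV and 5 in HL60 cells. The copies were picked for more rPAL counts, so this tally is a description. In HL60 cells each of the 5 had only 1 or 2 counts in rPAL, and 0 or 1 in total RNA.

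**Figure D5:**
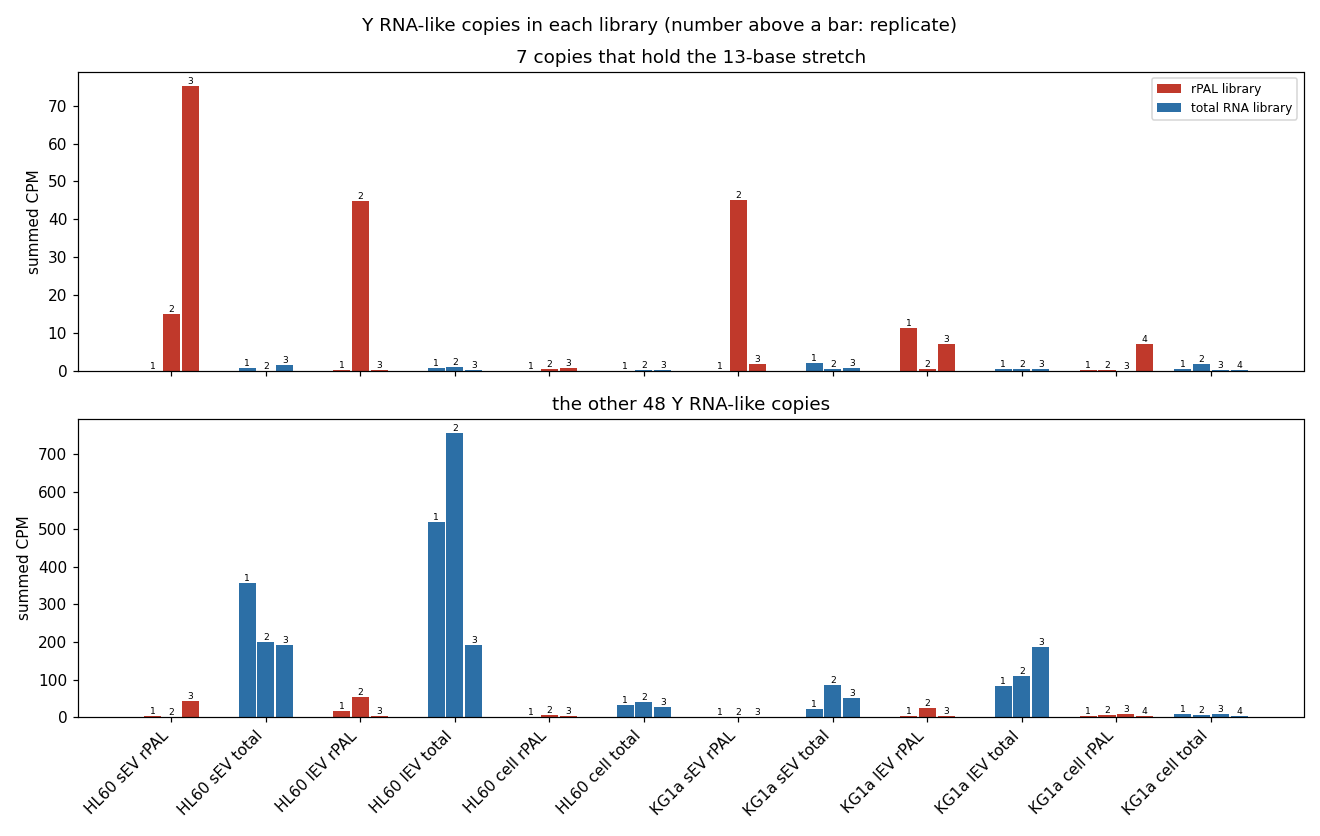
Summed CPM in each library, in bars that start at 0 with the replicate number above them, of Y RNA-like copies that hold the 13-base stretch and of those that do not; rPAL left of total RNA. The 7 copies stand out in single rPAL libraries, up to 75.2 CPM in HL60 sEV replicate 3, while the other copies are high in total RNA.

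With the 7 copies left out, the Y RNA-like sum was 1.47 ± 0.426 CPM in KG1a sEV rPAL and 53.4 ± 32.2 CPM in total RNA. With them in, it was 17.1 ± 26 CPM in rPAL and 54.4 ± 31.4 CPM in total RNA. In HL60 sEV the sum without them was 15.8 ± 24.2 CPM in rPAL and 250.2 ± 92.9 CPM in total RNA, against 45.9 ± 63.5 CPM in rPAL with them. In the reference, 5 of 206694 transcripts hold the reverse complement of the stretch, and their counts are not given here. The stretch itself is in 9 transcripts, and the other 2 are the long noncoding RNAs AC106744.2 and INKA2-AS1. AC106744.2 also had more counts in rPAL, 817 against 84 in total RNA, with a count in 15 rPAL and 9 total RNA libraries. INKA2-AS1 had 38 in rPAL and 14 in total RNA, but 36 of the 38 came from HL60 sEV rPAL replicate 2. It had a count in 2 rPAL and 7 total RNA libraries. The deposited counts do not show where in these genes the reads lie, so whether they cover the stretch was not tested.

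VTRNA3-1P, the vault RNA pseudogene, was called lower after rPAL in all 3 HL60 sources. Its log2 fold change was -6.97 ± 1.94 in sEV (edgeR adjusted p = 0.0357) and -8.46 ± 1.69 in lEV (edgeR adjusted p = 0.0107). The sEV call was lost without any single library (edgeR adjusted p of 0.0532 to 0.103), and the lEV call without total replicate 2 or 3 (0.0564 and 0.0556). In HL60 cells it had 1.01, 1.04 and 1.42 CPM in rPAL, against 17.6, 22.5 and 27.2 CPM in total RNA, and fell by 4.54 ± 0.51 on the log2 scale (edgeR adjusted p = 0.00013). In KG1a cells it had 0.837, 1.19, 2.35 and 0.129 CPM in rPAL, against 0.362, 1.56, 0.660 and 0.756 CPM in total RNA. These groups overlap and it was not called (log2 fold change 0.05, edgeR adjusted p = 0.980). The vault RNA gene VTRNA1-3 went the other way in HL60 cells, with a rise after rPAL of 2.92 (edgeR adjusted p = 0.00212). In KG1a cells, where VTRNA3-1P was not called, VTRNA1-3 rose by 2.44 (edgeR adjusted p = 0.0288).

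Members of the 7SK family were a pair with higher levels in cells and 3 copies with counts in a few libraries. RN7SKP160 and ENSG00000202198, which overlaps an exon of the 7SK gene RN7SK itself, were the members called lower in vesicles than in cells in both lines; both are named for that, after their values were seen. RN7SKP160 had 0.0838, 0.0732 and 0 CPM in HL60 lEV, against 6.06, 3.76 and 5.17 CPM in HL60 cells, and fell by 5.63 ± 0.66 on the log2 scale (edgeR adjusted p = 0.000303). ENSG00000202198 had 0.0838, 0 and 0.222 CPM in HL60 lEV, against 4.71, 2.89 and 5.31 CPM in HL60 cells, and fell by 4.56 ± 0.59 (edgeR adjusted p = 0.000432). The groups did not overlap. In HL60 sEV they fell by 4.01 ± 0.52 and 2.81 ± 0.51, and in HL60 cell rPAL ENSG00000202198 had 0 counts, against 185 in total RNA, at least 31.3-fold lower (edgeR adjusted p = 0.000875), or 17.5-fold without rPAL replicate 2.

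In KG1a RN7SKP160 had 1 count in lEV total RNA and 63 in cells, and ENSG00000202198 had 0 and 73. The other copies were uneven between libraries. RN7SKP232 had 163, 3.24 and 0.0961 CPM in HL60 sEV total RNA, so that 894 of its 1055 counts came from replicate 1, and 0 counts in HL60 sEV rPAL. Over all libraries it had 99 counts in rPAL and 956 in total RNA. RN7SKP280 had 209 counts in rPAL and 330 in total RNA. In HL60 sEV these were 0, 0 and 55 counts in rPAL and 30, 108 and 1 in total RNA, and in KG1a sEV 53, 54 and 0 in rPAL and 2, 182 and 5 in total RNA, so that both kinds of library overlapped. RN7SKP249, named after its values were seen, had 159 counts in rPAL and 1 in total RNA, and 158 of them came from HL60 sEV rPAL replicate 3.

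RN7SL1, the RNA of the signal recognition particle, had like levels in most HL60 total RNA libraries. It stood at 2.18, 8.63 and 1.44 CPM in HL60 sEV, 2.43, 1.61 and 1.04 CPM in HL60 lEV and 1.85, 2.08 and 1.96 CPM in HL60 cells as total RNA. It was called lower in KG1a sEV than in cells (-1.14 ± 0.40, edgeR adjusted p = 0.0329) with equal CPM of 3.23 ± 1.09 and 3.28 ± 0.685, and this call follows the scaling, with a log2 fold change of -0.01 (edgeR adjusted p = 0.989) without TMM. It fell by 4.07 ± 0.90 in HL60 cell rPAL (edgeR adjusted p = 0.00582). In HL60 sEV it had 0 counts in rPAL and 99 in total RNA, and in HL60 lEV 1 and 65. It did not pass the low-count filter in these 2 comparisons. In KG1a lEV it was not called after rPAL (log2 fold change -0.11, edgeR adjusted p = 0.975). In KG1a cells it had 0.532, 2.29, 1.56 and 5.86 CPM in rPAL, against 2.75, 2.63, 3.96 and 3.78 CPM in total RNA. Its 949 counts are a small part of 7SL RNA in the table, where 7 RNAcentral entries of that class held 302928.

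Genes that work with these RNAs were counted from fixed lists. Of 12 listed Y, vault, 7SL and other small RNA genes 11 were in the table; 5 were tested in lEV against cells, and 4 were called higher in each line, where 12.1% of all features were called higher in HL60 and 23.8% in KG1a. Of 10 listed symbols of Y RNA-binding protein genes 9 were in the table, where RO60 and TROVE2 are symbols of 1 gene. Of these 1 of 6 tested was called higher in HL60 lEV against cells, near the share of all features, and 4 of 7 in KG1a. Those called in KG1a include YBX1, a Y RNA-binding cold shock protein, at 2.45 ± 0.34 on the log2 scale in KG1a (edgeR adjusted p = 3.35e-05). TROVE2, which encodes Ro60, fell in HL60 cell rPAL by 3.35 ± 0.93 (edgeR adjusted p = 0.0184). In HL60 cell rPAL against total RNA, where 38.6% of all features were called, 1 of 2 tested genes of signal recognition particle proteins (6 listed), 1 of 3 of 7SK particle proteins (7 listed) and 1 of 2 of vault proteins (3 listed) were called. These shares are near that of all features, and the genes were SRP72 (log2 fold change 2.79 ± 0.51), CCNT2 (-3.96 ± 0.91) and MVP (3.67 ± 0.94). Counts on these genes in small RNA libraries do not measure the proteins.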

How the data were processed

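Small RNA from cells and vesicles was extracted with RNAzol and columns, made into libraries with a size-selecting small RNA kit and sequenced on a DNBSEQ platform, per the labels' protocols. The deposited values are raw whole-number counts per feature that the authors made from the reads; the submitters' processing notes name Bowtie2 and the builds GRCh38 and hg38, and the counting tool, the annotation release, the use of strand and the treatment of reads with several hits are not given in the sources used here. The members and gene lists were chosen with earlier results of these data known.

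CPM was computed per library total. In 13 comparisons edgeR 4.0.16 (R 4.3.3; filterByExpr, TMM scaling, robust quasi-likelihood fit on the libraries of both groups) was run on all features, with Benjamini-Hochberg adjustment and a threshold of 0.05. Alternatives were DESeq2 1.42.0, no TMM scaling, no low-count filter, a replicate block and leaving out each library, and for levels a library total without rRNA. The fit was tested on simulated data. Named members are the 12 with the largest summed count and, per comparison, the 3 largest called changes in each direction at 5 CPM or more in a group and with no overlap between groups; others are said to be chosen after their values were seen. Sequences and coordinates were read from GENCODE release 29 with Biopython 1.88. Counting floors are 3 counts over a group and cover counting error only.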

Additional observations from a re-analysis of the deposited data

Results flagged for a closer look

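In the groups of 4 libraries, 5 of 36 values tested had 1 library far from the other 3. The rate of about 1 in 20 by chance holds only for values with a normal spread. Members with counts in 1 library and 0 in the others, such as RN7SKP232 and RNY4P9, do not meet that. The number flagged is therefore a description and was not compared with chance. In KG1a cell rPAL the 7 copies with the 13-base stretch summed to 7.08 CPM in replicate 4, against 0.184 CPM or less in the other replicates. ENSG00000212448 was at 1.27 CPM in replicate 3, RN7SKP232 at 1.47 CPM in replicate 2 with 0 counts in the others, and RNY4P9 at 0.293 CPM in replicate 3, which is 3 counts. In KG1a cell total RNA the same 7 copies summed to 1.64 CPM in replicate 2, against 0.290 CPM or less in the other replicates.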

How the results depend on the processing

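Of 658 alternative values for 65 results on named members, 542 kept direction and side of the threshold, 116 kept direction but lost the call, and 0 reversed. DESeq2 kept all 59 calls to which it gave an adjusted p. It gave none to ENSG00000207142, ENSG00000202469 and ENSG00000200506 in HL60 against KG1a lEV, so those calls rest on edgeR. The same holds for ENSG00000207142 in HL60 lEV against cells, and for ENSG00000207142 and ENSG00000212448 in HL60 lEV rPAL. Without the low-count filter more members were tested. In rPAL against total RNA of cells, 1 of 51 tested was called in KG1a and 14 of 61 in HL60. For lEV these were 0 of 60 in KG1a and 6 of 63 in HL60, and for sEV 0 of 49 and 2 of 64. In KG1a lEV against cells 29 of 59 were called. Between HL60 and KG1a total RNA, 22 of 62 were called in cells and 10 of 63 in sEV. DESeq2 called 13 in KG1a lEV rPAL and 6 in HL60 against KG1a sEV. The replicate block gave 14 of 34 in HL60 lEV rPAL, 0 of 6 in KG1a sEV rPAL and 1 of 10 in HL60 sEV rPAL. It gave 4 of 9 in KG1a sEV against cells and 1 of 19 in HL60 against KG1a sEV. No share of all features called is given for the unfiltered and blocked fits, so their counts are a description. In no comparison did every pair of same-numbered libraries deviate together with a correlation over 0.1, so the numbers were not taken to pair samples. The cause of these changes was not tested.

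Leaving out 1 library at a time gave 0 to 3 calls in KG1a cell rPAL, 6 to 14 in HL60 cell rPAL, 0 to 18 in KG1a lEV rPAL, 3 to 49 in HL60 lEV rPAL, 0 to 2 in KG1a sEV rPAL, 0 to 3 in HL60 sEV rPAL, 2 to 11 in KG1a sEV against cells and 4 to 19 in HL60 sEV against cells. The members that passed the low-count filter changed with the library left out, and so did the number tested. Without TMM scaling the median of all features moved by 1.46 on the log2 scale in HL60 lEV rPAL, 1.14 in KG1a sEV against cells, -0.78 in HL60 lEV against cells and -0.94 in HL60 against KG1a lEV. With rRNA left out of the library total, 15 of 72 group levels moved by more than 1 SD. Few counts limit most members, above all in rPAL libraries.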
